A study of Homo sapiens with 10 samples.

Results

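The Sprouty, SPRED and dual-specificity phosphatase (DUSP) genes examined here are 10 named inhibitors of receptor and MAP kinase signalling: SPRY1, SPRY2, SPRY4, SPRED1, SPRED2, DUSP1, DUSP2, DUSP4, DUSP5 and DUSP6. They were taken by gene name from the table of raw counts, which lists 60574 genes, and each was found there under its symbol. Of the 10, 9 passed a filter on low counts and entered the test together with the rest of the 17834 tested genes, and SPRY2 did not pass it. The lowest count of a tested member in any library was 10, for DUSP2.

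The libraries came from U266, an established cell line from a human myeloma, labelled as plasma cells, and the only line used. Every culture, controls included, had been transduced with a lentivirus for dCas9-VPR, a Cas9 without cutting activity joined to transcription activators, and was then selected and kept in blasticidin and puromycin. One set of 5 libraries (A to E) carried a guide RNA aimed at the start of EFNB2, the gene of the ligand ephrin-B2, and the other set of 5 (A to E) carried a scrambled guide with no target; no further treatment was given. The labels do not say whether the 5 libraries of a guide were separate cultures or transductions, or how many transductions were made, so each p-value speaks only of how far the libraries scatter, which may be technical.

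When a growth factor binds a receptor tyrosine kinase, adaptor proteins switch on RAS, which starts the relay of RAF, MEK and ERK kinases. Active ERK raises the transcription of several of its own inhibitors: Sprouty and SPRED proteins act upstream, near the receptor, RAS and RAF, and the MAP kinase phosphatases of the DUSP family remove the activating phosphates from ERK, JNK and p38 kinases. In myeloma the pathway is well known for activating mutations of RAS genes.

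SPRY1, SPRY2, DUSP1 and DUSP2 differ in how they stand in the comparison. Stretches just before a transcription start of each are therefore given first, each holding a different set of the motifs searched. They come from RefSeq (GRCh38.p14) on the strand of the gene, reading towards the start; each ends at the base before it, and capitals mark motif matches.
SPRY1, chr4:123396545-123396794, plus strand: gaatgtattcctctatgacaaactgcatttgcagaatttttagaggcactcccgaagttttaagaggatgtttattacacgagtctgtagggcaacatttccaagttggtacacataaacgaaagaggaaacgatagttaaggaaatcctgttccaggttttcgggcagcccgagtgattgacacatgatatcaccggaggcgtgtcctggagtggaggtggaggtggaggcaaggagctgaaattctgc
SPRY2, chr13:80341127-80341376, minus strand: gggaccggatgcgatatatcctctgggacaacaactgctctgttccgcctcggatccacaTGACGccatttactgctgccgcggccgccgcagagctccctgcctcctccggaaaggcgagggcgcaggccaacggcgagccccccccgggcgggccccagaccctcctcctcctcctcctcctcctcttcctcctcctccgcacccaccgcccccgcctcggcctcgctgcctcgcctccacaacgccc
DUSP1, chr5:172771196-172771445, minus strand: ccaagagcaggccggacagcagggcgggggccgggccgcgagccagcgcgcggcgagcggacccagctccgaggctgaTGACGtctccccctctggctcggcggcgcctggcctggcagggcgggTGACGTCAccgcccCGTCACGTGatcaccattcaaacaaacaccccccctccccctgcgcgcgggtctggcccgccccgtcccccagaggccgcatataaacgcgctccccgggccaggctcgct
DUSP2, chr2:96145441-96145601, minus strand: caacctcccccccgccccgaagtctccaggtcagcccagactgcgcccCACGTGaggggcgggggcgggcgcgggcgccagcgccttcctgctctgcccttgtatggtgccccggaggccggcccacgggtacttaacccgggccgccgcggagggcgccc

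RefSeq's promoter table held 12 starts of 8 of the 10 genes, and DUSP4 and DUSP5 had no entry. Motifs were searched on both strands over the 250 bases before each start, in the member promoters and in all 35116 promoters of the table. The cAMP response element TGACGTCA was present before DUSP1, at 125 bases upstream, and in 1.65% of all promoters (2.35% of those of tested genes). Its core TGACG, which the longer element contains on both strands, occurred before 3 member starts (DUSP1, SPRY4 and 1 start of SPRY2) and in 21.2% of all promoters; among promoters of tested genes the share was 27.4%. The E-box CACGTG lay before DUSP2, 113 bases upstream, and before DUSP1, 108 bases upstream and overlapping a core element, against 6.34% of all promoters (8.27% of those of tested genes). The STAT motif TTCNNNGAA lay before 1 start of SPRY1 that is not printed, and in 6.57% of all promoters (5.52% of those of tested genes). The ETS motif GGAAGT lay before 1 start of SPRY2 that is not printed (19.5% of all promoters, 22.2% of those of tested genes), while the longer CCGGAAGT (3.42%), the AP-1 motif TGANTCA (6.57%) and the serum response CArG box (1.16%) were in 0 of the 12. The printed SPRY1 stretch thus holds none of these motifs, SPRY2 holds 1 core element, DUSP1 holds a cluster of core elements with an E-box, and DUSP2 holds 1 E-box; a match is a description of letters, not of a bound site.

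EFNB2, the guide's target, stood at 0.955, 1.12, 1.25, 1.50 and 1.21 CPM (counts scaled to a common library total) in EFNB2 guide libraries A to E. It stood at 0.170, 0.136, 0.143, 0.110 and 0.0365 CPM in control libraries A to E. The groups did not overlap, and the fold was 9.96 (log2 fold change 3.32, SE 0.25, adjusted p = 4.68e-08). Library totals ran from 47268072 to 56513548 counts. The A library of each guide stood apart from the others on the second principal component of the tested genes. They lay at opposite ends of it, EFNB2 guide A at 21.2 and control A at -25.9. This component carried 8.33% of the variance against 61.7% for the first. Plasma cell markers were present, with 8 of 8 detected (any count in any library). They summed to 3532 to 3764 CPM with the EFNB2 guide against 4023 to 4652 CPM in controls. SDC1 made up most of this sum and fell from 3015 to 2121 CPM. Of the 8 markers, 3 were higher (XBP1, SLAMF7 and CD38) and 3 lower (SDC1, TNFRSF17 and MZB1). Of all tested genes, 22.8% were higher and 22.6% lower. Markers of B cells (4 of 4 detected, 0.251 to 0.474 against 0.175 to 0.547 CPM), T cells (3 of 3, 2.57 to 3.22 against 2.50 to 4.42 CPM), myeloid cells (3 of 3, 0.246 to 0.395 against 0.0729 to 0.349 CPM) and epithelial cells (3 of 3, 0 to 0.0551 against 0 to 0.0388 CPM) were low, and fibroblast markers (3 of 3) summed to 25.4 to 29.8 against 19.8 to 27.0 CPM; 1 of the myeloid and 1 of the fibroblast markers was higher and 1 fibroblast marker lower. The part of these differences in the results below was not tested, and in bulk RNA fewer cells of a type and less RNA per cell cannot be told apart.

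Of the 9 tested inhibitors, 7 were higher with the EFNB2 guide (SPRY1, SPRY4, SPRED1, SPRED2, DUSP1, DUSP4 and DUSP6) and 2 were lower (DUSP2 and DUSP5). These counts are to be read against a comparison in which 45.4% of all tested genes passed, 22.8% higher and 22.6% lower, with an adjusted p under 0.05. The median log2 fold change was 0.39 over the 9 genes and 0.01 over all tested genes. SPRY1 and SPRY4 changed at least 2-fold, which 4.03% of all tested genes did with a pass. For 6 members every EFNB2 guide library lay above every control library (15% of all tested genes), for DUSP5 every one lay below (15.2%), and for DUSP2 and DUSP4 the groups overlapped. Counting both directions, the groups were apart for 7 of the 9 members and for 30.3% of all tested genes. The changes ranged from 3.27-fold for SPRY4 to 1.10-fold for DUSP6.

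**Figure D1:**
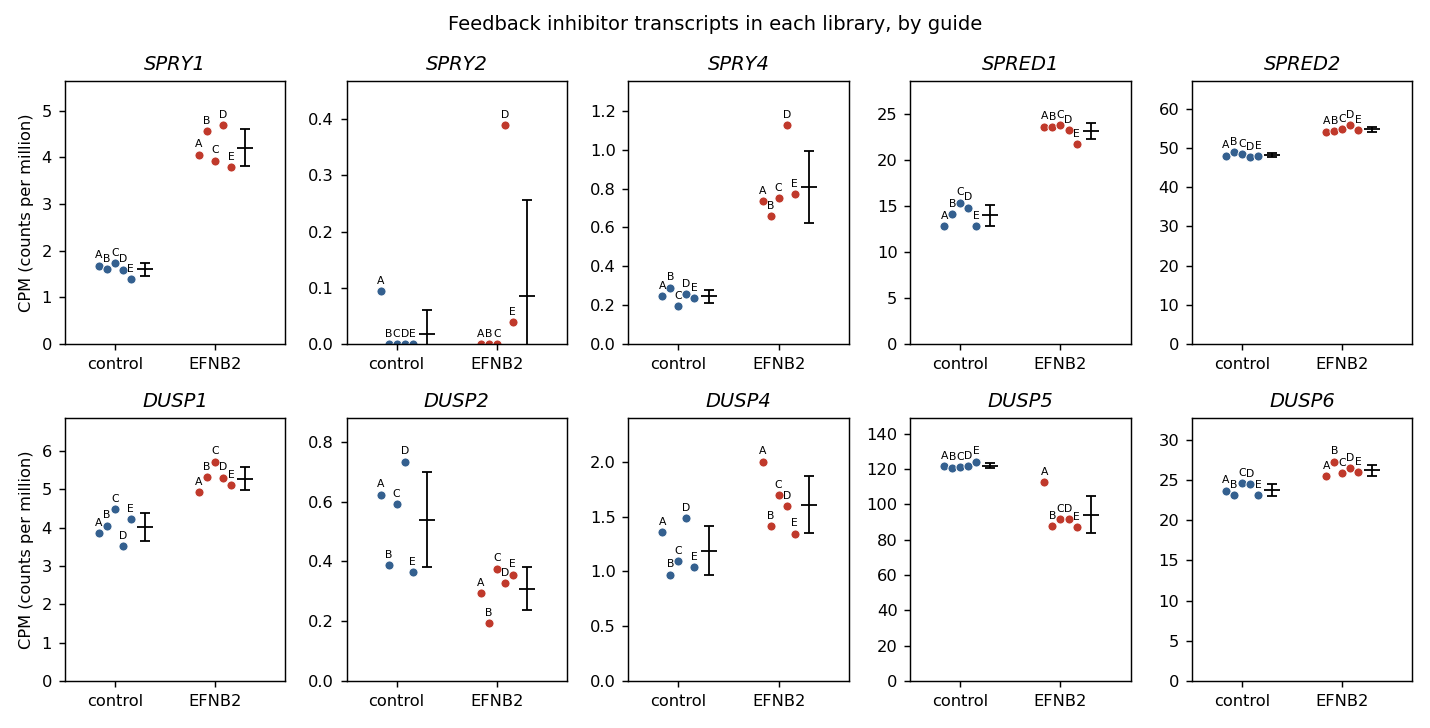
CPM of the 10 genes, 1 panel per gene with its own linear axis from 0; points are the 5 control guide (blue) and 5 EFNB2 guide (red) libraries, lettered A to E, and bars are the mean and SD of each group. SPRY1, SPRY4 and SPRED1 show separate groups, DUSP5 is lower with library A at 112 CPM nearest the controls, and SPRY2 has counts in 3 of the 10 libraries.

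The Sprouty genes encode membrane-associated proteins that are phosphorylated after receptor activation and hold back the step from receptor to RAS and RAF. SPRY1 (ENSG00000164056, chr4:123396795-123403760, plus strand) stood at 4.06, 4.56, 3.93, 4.69 and 3.80 CPM in EFNB2 guide libraries A to E. Its control libraries A to E stood at 1.68, 1.61, 1.74, 1.60 and 1.39 CPM. All 5 EFNB2 guide libraries were thus above all 5 controls, and the spread within a guide was small beside the gap. The means were 4.21 ± 0.397 and 1.60 ± 0.134 CPM (SD, n = 5 each), a 2.62-fold rise (2.30 to 2.99 at 2 SE; log2 fold change 1.39, SE 0.10, adjusted p = 1.45e-08). In size this change was at the 97.8 percentile of all tested genes.

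SPRY4 (ENSG00000187678, chr5:142310430-142325021, minus strand), which also limits activation of RAS and RAF, was expressed at a lower level and had the largest fold among the 9 tested members. Its EFNB2 guide libraries A to E stood at 0.735, 0.657, 0.752, 1.13 and 0.771 CPM, and its control libraries at 0.246, 0.291, 0.197, 0.257 and 0.237 CPM. The groups did not overlap, and library D was the highest of the EFNB2 guide set. The means were 0.808 ± 0.183 and 0.246 ± 0.0340 CPM (SD, n = 5 each), a 3.27-fold rise (2.46 to 4.34 at 2 SE; log2 fold change 1.71, SE 0.20, adjusted p = 6.31e-06). Without library D the log2 fold change was 1.57 (adjusted p = 1.43e-05). The summed counts behind it were 204 and 66, and the antisense gene SPRY4-AS1, which overlaps it on the other strand, had 1 count in all libraries. SPRY4 was thus a low-level gene whose rise was present in each library.

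SPRY2 (ENSG00000136158, chr13:80335976-80341126, minus strand), the Sprouty gene best known for binding the adaptor GRB2 and the ubiquitin ligase CBL, was near the limit of detection. EFNB2 guide libraries A to E held 0, 0, 0, 19 and 2 counts, and control libraries A to E held 5, 0, 0, 0 and 0. Most of the reads came from library D of the EFNB2 guide, at 0.389 CPM, while a count of 0 allows up to 3 counts, which is 0.0537 to 0.0627 CPM at these depths. The ratio of summed counts, scaled by library size, was 4.47 (exact Poisson 95% interval 1.64 to 15.2), an interval that covers counting error only. Without EFNB2 guide D the sums were 2 and 5 counts and the ratio turned to 0.527 (interval 0.0502 to 3.22), and all control counts came from control A. In the fit without a filter on low counts the log2 fold change of SPRY2 was 2.04 and did not pass (adjusted p = 0.137).

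SPRED proteins carry a Sprouty-related domain and bring neurofibromin, which switches RAS off, to the membrane. SPRED1 (ENSG00000166068, chr15:38252836-38357249, plus strand) stood at 23.6, 23.6, 23.8, 23.3 and 21.7 CPM in EFNB2 guide libraries A to E. Its control libraries stood at 12.9, 14.1, 15.4, 14.8 and 12.8 CPM. No library of either guide reached the range of the other. The means were 23.2 ± 0.866 and 14.0 ± 1.16 CPM (SD, n = 5 each), a 1.66-fold rise (1.54 to 1.78 at 2 SE; log2 fold change 0.73, SE 0.05, adjusted p = 2.81e-08).

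SPRED1 lies on chromosome 15, where most placed tested genes were higher with the EFNB2 guide. Of the 17834 tested genes, 14312 matched a RefSeq symbol and could be placed. Chromosome counts and nearest neighbours, here and below, are among these placed genes alone. Leaving SPRED1 out, 343 of 488 tested genes of that chromosome were higher (70.3%), 24 were lower (4.92%) and the median log2 fold change was 0.30. Among the 13823 tested genes placed on other chromosomes, 23.3% were higher and 26.3% lower, with a median of -0.01. SPRED1 at 0.73 was above that chromosome's median, and 56 other chromosome 15 genes had a log2 fold change as high or higher. Of its 10 nearest tested neighbours, over 4804.5 kb, 6 were higher and 0 lower, with a median of 0.28. One of them, the noncoding RNA gene LINC01852, changed more than 2-fold, from 0.289 to 0.776 CPM (log2 fold change 1.42, SE 0.25, adjusted p = 2.48e-04). The part of the chromosome-wide shift in the rise of SPRED1 was not tested.

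**Figure D2:**
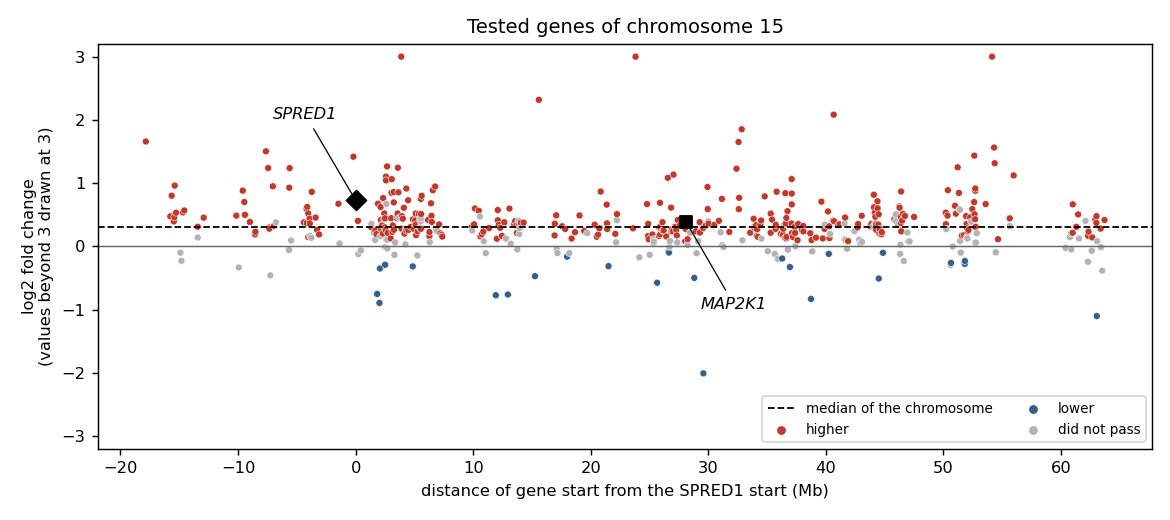
Log2 fold change (EFNB2 guide over control guide) of the tested genes placed on chromosome 15. The horizontal axis is the distance of their start from that of SPRED1 in Mb. SPRED1 (diamond) and MAP2K1 (square) are marked, with a solid line at 0 and a dashed line at the chromosome's median of 0.30. Values beyond 3 are drawn at 3. SPRED1 at 0.73 lies above the median, among other genes that were also higher.

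SPRED2 (ENSG00000198369, chr2:65307175-65432599, minus strand), its close relative, was more abundant and changed little. EFNB2 guide libraries A to E stood at 54.2, 54.3, 54.8, 55.9 and 54.6 CPM, and control libraries A to E at 48.0, 48.9, 48.4, 47.6 and 47.8 CPM. The groups did not overlap because the libraries of a guide were so alike. The means were 54.7 ± 0.680 and 48.1 ± 0.500 CPM (SD, n = 5 each), a 1.14-fold rise (1.10 to 1.18 at 2 SE; log2 fold change 0.18, SE 0.02, adjusted p = 1.45e-05). A change of this size or smaller was seen in 54.8% of all tested genes. Of its 10 nearest tested neighbours 0 were higher and 3 lower, where 22.8% and 22.6% of all tested genes were.

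DUSP1, DUSP2, DUSP4 and DUSP5 are the phosphatases of the nucleus and are immediate-early or early genes in many cells. DUSP5 (ENSG00000138166, chr10:110497907-110511533, plus strand), which acts on ERK, was the most abundant of the 10 and was lower with the EFNB2 guide. Its EFNB2 guide libraries A to E stood at 112, 87.9, 91.8, 91.8 and 87.2 CPM. Its control libraries A to E stood at 122, 121, 121, 122 and 124 CPM. All EFNB2 guide libraries were below all controls, and library A was nearer to the controls than to the others of its guide. The means were 94.2 ± 10.4 and 122 ± 1.36 CPM (SD, n = 5 each), a fall of 1.29-fold (ratio 0.773, 0.717 to 0.833 at 2 SE; log2 fold change -0.37, SE 0.05, adjusted p = 4.60e-05). Without EFNB2 guide library A the log2 fold change was -0.44 (adjusted p = 2.93e-09). Of the 10 nearest tested neighbours of DUSP5, 3 were higher and 5 lower, where 22.8% and 22.6% of all tested genes were. One of them, the splicing factor gene RBM20, changed at least 2-fold, from 12.4 to 5.92 CPM (log2 fold change -1.06, SE 0.08, adjusted p = 2.64e-08).

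DUSP2 (ENSG00000158050, chr2:96143169-96145440, minus strand), a phosphatase best known from activated blood cells, was the other member that fell. EFNB2 guide libraries A to E stood at 0.294, 0.193, 0.376, 0.328 and 0.356 CPM, and control libraries A to E at 0.624, 0.388, 0.591, 0.734 and 0.365 CPM. Controls B and E were close to the EFNB2 guide libraries, so that the groups overlapped at the level of single libraries. The means were 0.309 ± 0.0719 and 0.540 ± 0.159 CPM (SD, n = 5 each), a ratio of 0.572 (0.406 to 0.805 at 2 SE; log2 fold change -0.81, SE 0.25, adjusted p = 0.0147). The summed counts were 78 and 146, and over all settings in which DUSP2 was tested its adjusted p lay between 0.00809 and 0.0477.

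DUSP1 (ENSG00000120129, chr5:172768096-172771195, minus strand), which removes phosphates from p38 and JNK as well as ERK and is a classic stress and glucocorticoid response gene, was higher. Its EFNB2 guide libraries A to E stood at 4.92, 5.32, 5.73, 5.31 and 5.12 CPM, and its control libraries at 3.86, 4.05, 4.48, 3.52 and 4.23 CPM. The groups did not overlap, although control C at 4.48 CPM was close to EFNB2 guide A at 4.92 CPM. The means were 5.28 ± 0.298 and 4.03 ± 0.363 CPM (SD, n = 5 each), a 1.31-fold rise (1.18 to 1.45 at 2 SE; log2 fold change 0.39, SE 0.08, adjusted p = 6.64e-04). Of the 10 nearest tested neighbours of DUSP1, 1 was higher and 3 lower, where 22.8% and 22.6% of all tested genes were. The higher one, NEURL1B, a ubiquitin ligase gene, went from 0.269 to 0.608 CPM (log2 fold change 1.16, SE 0.26, adjusted p = 0.00212).

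DUSP4 (ENSG00000120875, chr8:29333064-29350684, minus strand), a nuclear phosphatase of ERK and JNK, gave the least firm call. EFNB2 guide libraries A to E stood at 2.00, 1.41, 1.69, 1.60 and 1.34 CPM. Control libraries A to E stood at 1.36, 0.970, 1.09, 1.49 and 1.04 CPM. The lowest EFNB2 guide library was below the highest controls. The means were 1.61 ± 0.260 and 1.19 ± 0.223 CPM (SD, n = 5 each), a 1.35-fold rise (1.10 to 1.67 at 2 SE; log2 fold change 0.44, SE 0.15, adjusted p = 0.0269). The call was lost without any 1 of 5 libraries: the adjusted p was 0.0711 without EFNB2 guide A, 0.0547 without EFNB2 guide C, 0.0671 without control B, 0.0606 without control C and 0.0658 without control E.

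DUSP6 (ENSG00000139318, chr12:89347235-89352501, minus strand), the cytoplasmic phosphatase that is specific for ERK and a widely used readout of ERK activity, changed least of the 9. Its EFNB2 guide libraries A to E stood at 25.5, 27.3, 25.9, 26.5 and 26.0 CPM, and its control libraries at 23.7, 23.1, 24.6, 24.5 and 23.1 CPM. Each EFNB2 guide library was above each control, by a small step. The means were 26.2 ± 0.680 and 23.8 ± 0.736 CPM (SD, n = 5 each), a 1.10-fold rise (1.05 to 1.15 at 2 SE; log2 fold change 0.14, SE 0.03, adjusted p = 0.00352). A change of this size or smaller was seen in 45.1% of all tested genes.

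**Figure D3:**
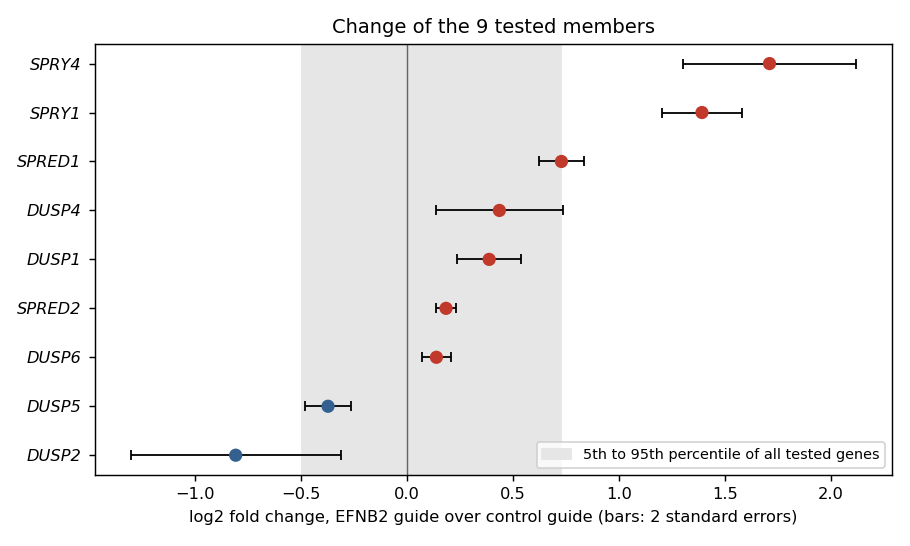
Log2 fold change (EFNB2 guide over control guide) of the 9 tested genes with bars of 2 SE, beside the band from the 5th to the 95th percentile of all tested genes (-0.49 to 0.73). SPRY4 and SPRY1 lie above the band, SPRED1 at its upper edge and DUSP2 below it.

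Levels can be set against each other only per length, and per kilobase of exon (union of GENCODE 29 exons) the 10 genes covered more than 3 orders of magnitude. In controls DUSP5 led with 46.6 ± 0.519 CPM per kb (SD, n = 5), followed by SPRED2 with 9.34 ± 0.0970 and DUSP6 with 5.14 ± 0.159. DUSP1 (1.75 to 2.22) and SPRED1 (1.55 to 1.86) came next in CPM per kb and overlapped. SPRY1 with 0.404 ± 0.0338 CPM per kb overlapped DUSP2 with 0.280 ± 0.0824, and DUSP2 overlapped DUSP4 with 0.164 ± 0.0307. SPRY4 was at 0.0374 ± 0.00517 CPM per kb, and SPRY2 was last at 0.00622. With the EFNB2 guide DUSP5 (36.0 ± 3.98), SPRED2 (10.6 ± 0.132) and DUSP6 (5.67 ± 0.147) kept the first 3 places in CPM per kb. SPRED1 (2.63 to 2.88) then stood beside DUSP1 (2.44 to 2.84) with overlapping ranges, and SPRY1 reached 1.06 ± 0.100. DUSP4 (0.222 ± 0.0359), DUSP2 (0.160 ± 0.0372) and SPRY4 (0.123 ± 0.0279) followed in CPM per kb, each overlapping the next, with SPRY2 at 0.0282. The order of the 3 most abundant genes was the same with both guides.

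The genes nearest to the other members are given beside the 22.8% higher and 22.6% lower of all tested genes. Of 10 tested neighbours each, SPRY1 had 2 higher and 2 lower, SPRY2 3 and 2, SPRY4 0 and 6, DUSP2 1 and 3, DUSP4 2 and 4, and DUSP6 1 and 1. The median log2 fold change of these neighbour groups lay between -0.17 for DUSP5 and 0.02 for DUSP1 in all members but SPRED1. SPRY4 had the largest rise, and 0 of its 10 neighbours passed as higher. Any part of gene position in these changes was not tested.

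Closest relatives outside the 10 genes did not share one direction. Among 6 tested genes of a list of 7 (SPRY3, SPRED3 and 5 further MAP kinase phosphatases), 2 were higher and 3 lower (of all tested genes 22.8% were higher and 22.6% lower), with a median log2 fold change of 0.05 against 0.01 over all tested genes. SPRY3, below the level set for naming, fell from 1.77 to 1.38 CPM with overlapping groups (log2 fold change -0.35, SE 0.12, adjusted p = 0.0294). With 1 library left out, 2 to 3 genes of this list were lower. SPRED3 did not pass (log2 fold change 0.26, adjusted p = 0.112). DUSP7, a cytoplasmic ERK phosphatase like DUSP6, rose from 9.03 to 10.6 CPM (log2 fold change 0.23, SE 0.06, adjusted p = 0.00270). DUSP10 (log2 fold change -0.28, adjusted p = 0.00791) and DUSP16 (-0.13, adjusted p = 0.00337), which prefer JNK and p38, fell. Of 11 tested atypical dual-specificity phosphatases, which lack the MAP kinase binding domain, 1 was higher and 7 lower, where 22.8% and 22.6% of all tested genes were, with a median of -0.20 against 0.01. DUSP28 (log2 fold change -0.30), DUSP23 (-0.22) and DUSP3 (-0.22) were lower, and DUSP12 (0.09) was higher at an adjusted p of 0.0495. DUSP12 did not pass in 12 of 19 alternative settings (highest adjusted p = 0.158), leaving 0 of the list higher; these include leaving out EFNB2 guide A, C or D or control A, B or E. The call of DUSP23 was lost without EFNB2 guide B or without control C (highest adjusted p = 0.0563).

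**Figure D4:**
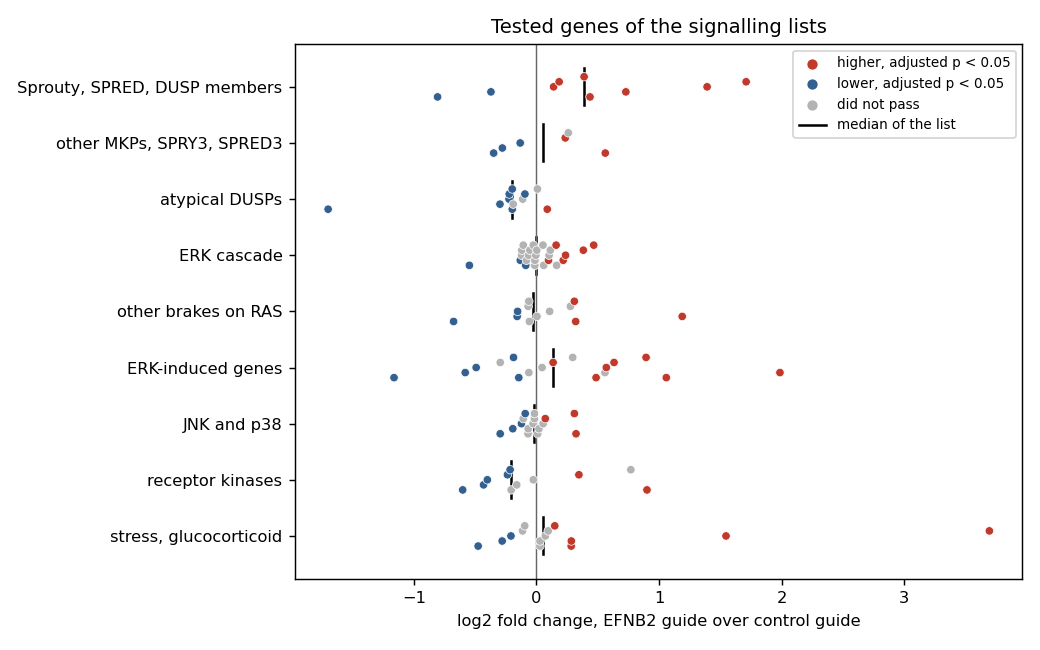
Log2 fold change (EFNB2 guide over control guide) of each tested gene in the 9 lists, red where higher, blue where lower and grey where the adjusted p did not pass, with a line at each list's median. The members have a median of 0.39, the receptor kinases of -0.21 and the ERK cascade of -0.01.

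Of 25 tested adaptor, RAS, RAF, MEK and ERK genes of the cascade that these proteins inhibit, 6 were higher and 3 lower (36% called, against 45.4% of all tested genes), with a median log2 fold change of -0.01. RASGRP3, a RAS activator of lymphoid cells, rose from 252 to 349 CPM (log2 fold change 0.47, SE 0.04, adjusted p = 2.32e-07). MAP2K1, the MEK1 gene on chromosome 15, was higher by 0.38 on the log2 scale, where the median of that chromosome's placed genes was 0.30. The part of the chromosome-wide shift in this rise was not tested. The adaptor gene GAB2 fell from 20.8 to 14.2 CPM (log2 fold change -0.55, SE 0.05, adjusted p = 2.23e-07), and NRAS (-0.13) and GAB1 (-0.09) were lower. GAB1 did not pass without EFNB2 guide C or E, without control B or D, or with the replicate letter as a block (highest adjusted p = 0.0631). The number of lower cascade genes rested on the A libraries: it was 3 with all libraries, 6 without EFNB2 guide A, 8 without control A and 10 without both.

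Among receptor tyrosine kinases upstream of Sprouty proteins, 11 of 19 were tested, of which 2 were higher and 5 lower, with a median log2 fold change of -0.21. Of all tested genes 22.8% were higher and 22.6% lower, with a median of 0.01. MET, the receptor of hepatocyte growth factor, fell from 58.7 to 43.5 CPM (log2 fold change -0.43, SE 0.04, adjusted p = 9.61e-07). The receptor gene FGFR1 fell from 16.6 to 12.5 CPM (-0.40, adjusted p = 1.81e-05), and INSR, the insulin receptor gene, was lower (-0.24, adjusted p = 1.68e-04). FGFR4 was higher (log2 fold change 0.35, adjusted p = 0.0233) but did not pass without EFNB2 guide B or E or without control D or E (highest adjusted p = 0.0634). The number of higher receptor genes was 0 without EFNB2 guide E and 1 without EFNB2 guide A or B or without control C, D or E.

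Of 12 tested genes for other brakes on receptor and RAS signalling, 3 were higher and 3 lower (50% called, against 45.4% of all tested genes), with a median log2 fold change of -0.03. PEBP1, an inhibitor of the kinase cascade, rose from 299 to 373 CPM (log2 fold change 0.32, adjusted p = 2.04e-04). LZTR1, part of a ubiquitin ligase for RAS proteins, was higher by 0.31 on the log2 scale. RASA1, which switches RAS off, fell from 49.3 to 44.2 CPM (-0.16), and the ubiquitin ligase gene CBLB was lower (-0.15). Without control A the number of lower brakes was 5.

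Of 17 tested genes that ERK signalling is known to induce, 7 were higher and 5 lower, where 22.8% and 22.6% of all tested genes were. Their median log2 fold change was 0.14, against 0.01 over all tested genes. The ETS factor genes ETV5 and ETV4, which with the Sprouty, SPRED and DUSP genes are common readouts of the pathway, rose from 27.3 to 42.3 CPM (log2 fold change 0.63, SE 0.04, adjusted p = 6.05e-09) and from 32.7 to 45.8 CPM (0.49, SE 0.05, adjusted p = 1.79e-06). The immediate-early gene EGR1 rose from 1.39 to 2.59 CPM (log2 fold change 0.89, SE 0.17, adjusted p = 5.77e-04). Its highest value was in EFNB2 guide D, at 3.71 CPM against 2.02 to 2.84 in the others of that guide. MYC fell from 16.2 to 7.22 CPM (log2 fold change -1.16, SE 0.08, adjusted p = 1.08e-08), EGR2 fell from 4.99 to 3.34 CPM (-0.58), and CCND1, the cyclin D1 gene, was lower (-0.19, adjusted p = 1.36e-05). These genes were named as the 3 largest rises and the 3 largest falls that passed at a sufficient level. Their even split was therefore set by the choice.

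The kinases that DUSP1, DUSP4, DUSP10 and DUSP16 also act on are those of the JNK and p38 cascades, in which 3 of 16 tested genes were higher and 4 lower (43.8% called, against 45.4% of all tested genes), with a median log2 fold change of -0.02. MAPKAPK2, a kinase activated by p38, rose from 295 to 369 CPM (log2 fold change 0.32, SE 0.02, adjusted p = 9.42e-09). MAP3K4 was higher by 0.31, and MAP2K7 by 0.07 with an adjusted p of 0.0350. MAP2K7 did not pass in 8 of 19 alternative settings (highest adjusted p = 0.164), among them without EFNB2 guide B, D or E and without control B or E. MAPKAPK3 (log2 fold change -0.30), MAP3K1 (-0.19) and MAP3K5 (-0.12) were lower.

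Stress and glucocorticoid response genes, a class to which DUSP1 belongs, had 5 higher and 3 lower of 14 tested (57.1% called, against 45.4% of all tested genes) and a median log2 fold change of 0.05. ATF3, a stress-induced transcription factor gene, rose from 17.8 to 21.7 CPM (log2 fold change 0.28), and the chaperone genes HSPA1B (0.28) and HSPH1 (0.15) were higher. GADD45A (-0.48), the glucocorticoid-induced FKBP5 (-0.28) and JUN (-0.21) were lower on the same scale. Genes of this class, with DUSP1 at 0.39, thus lay on both sides of 0.

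Profiles most like those of the member with the largest rise and the member with the largest fall were sought among 11423 tested genes of sufficient level, by the root mean square difference in log2 CPM over the 10 libraries after centring on the control mean. For SPRY4 these were ATP8A1 (difference 0.202, log2 fold change 1.71), GEM (0.206, 1.43) and LRMP (0.220, 1.58). For DUSP2 they were HYDIN2 (difference 0.241, log2 fold change -0.71), HFM1 (0.248, -0.55) and LRRIQ3 (0.284, -0.65). SPRY4 and DUSP2 themselves, with mean log2 CPM of -0.85 and -1.10, lay below the level of 1 asked of these genes. The prior count of 2 added before taking log2 therefore shrinks their changes more, so the likeness is approximate. ATP8A1 encodes a lipid flippase, GEM a small GTPase and LRMP an endoplasmic reticulum protein of lymphoid cells.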

How the data were processed

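The 10 U266 libraries were grouped by the genotype label, 5 per guide. Per the labels' protocols, poly(A) RNA was made into strand-specific libraries and sequenced as read pairs. Build GRCh38 and the tools STAR 2.27a, DESeq2 and Partek are listed, with no role for any, per the submitters' processing notes. Which annotation and which strand setting the counting used is not given in the sources used here, so reads of overlapping antisense genes cannot be assigned with certainty. Raw read counts, as the authors deposited them, are behind all main values. The normalized signal that the authors deposited beside them served as an alternative. The 3 lines that name no gene held at most 7.00e-05% of a library's counts and were left out.

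Counts were filtered with filterByExpr, scaled by TMM and tested for guide alone by edgeR's quasi-likelihood test (edgeR 4.0.16, R 4.3.3), with p-values adjusted by Benjamini-Hochberg over all 17834 tested genes at a threshold of 0.05. Every adjusted p in the text is from this test unless an alternative is named. CPM are counts divided by the library size after TMM scaling, log2 CPM used a prior count of 2, and a percentile of a change is taken over absolute log2 fold changes. The common biological coefficient of variation was 0.0489. The steps were tested on simulated data. Gene positions and promoters are from RefSeq (GRCh38.p14), and exon lengths and overlaps from GENCODE 29. Positions were matched by symbol, which placed 14312 of the 17834 tested genes, so a nearer tested gene without a match would be missed as a neighbour. Protein sequences were not used here.

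The members, the 8 further gene lists and the tests were chosen with earlier results of these data known. Beyond the members and EFNB2, the text names from each list up to 3 rises and 3 falls that passed and had a mean log2 CPM of 1 or more, neighbours of a called member changed at least 2-fold, and the most similar profiles; exceptions are stated, and some genes the rule gave are not reported here. Alternatives were DESeq2 1.42.0, limma-voom and limma-trend (limma 3.58.1; the latter on the deposited normalized values as log2(value + 1)), RLE scaling, library totals alone, no filter, at least 1 CPM in 5 libraries, the replicate letter as a block, and leaving out each library or both A libraries. Libraries of 1 guide differed by more than counting noise (chi-square over degrees of freedom 1.90 to 21.0), so no pair of files looked like the same sequenced library; this does not separate cultures from repeat preparations. Intervals and the limit of 3 counts cover counting error only, since no molecular identifiers were used here.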

Additional observations from a re-analysis of the deposited data

Results flagged for a closer look

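Groups of 5 libraries were examined for the members, EFNB2 and the genes given by the naming rule from the lists, not for neighbours or similar profiles. In 12 of 100 such groups, 1 library stood far from the other 4 (a gap of over 0.710 of the group's range). By chance about 1 in 20 would. Among the members, SPRY2 was at 0.389 CPM in EFNB2 guide D against 0 to 0.0395 in the others, and at 0.0945 CPM in control A against 0. SPRY4 was at 1.13 CPM in EFNB2 guide D against 0.657 to 0.771. SPRED1 was at 21.7 CPM in EFNB2 guide E against 23.3 to 23.8. DUSP5 was at 112 CPM in EFNB2 guide A against 87.2 to 91.8.

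Of the other genes, RASGRP3 (316 CPM against 356 to 360), PEBP1 (413 against 355 to 370), ETV4 (53.0 against 42.6 to 45.5) and MYC (9.09 against 6.54 to 6.86) stood apart in EFNB2 guide A, and EGR2 (2.69 against 3.38 to 3.57) in EFNB2 guide E. MET (52.6 CPM against 59.2 to 61.6) and JUN (37.2 against 32.0 to 33.2) stood apart in control A. Of these 12 values 8 came from an A library, and the A libraries were also apart, at opposite ends, on the second principal component.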

How the results depend on the processing

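Of 58 named genes tested, 52 kept their side of the threshold in all of the alternatives that tested them. The 1 result that reversed was the SPRY2 ratio of summed counts (4.47), which was 0.527 without EFNB2 guide D and at least 5.99 without control A, whose 5 counts were all of the control's (3 counts over the group in their place); leaving out each library was chosen for it after seeing the data. Of the 9 tested members 8 kept their call, and DUSP4 lost it without any 1 of 5 libraries (log2 fold change 0.35 without EFNB2 guide A). Over all genes, leaving out 1 library gave 3729 to 4608 higher and 3514 to 4522 lower, against 4072 and 4026. Leaving out 1 library gave 6 to 7 members higher and 2 lower. A minimum of 1 CPM in 5 libraries removed SPRY4 and DUSP2, leaving 6 members higher and 1 lower, and gave 1 higher relative and 1 higher receptor kinase. On log2(value + 1) of the deposited values log2 fold changes of genes at low levels were smaller by construction: 0.52 for SPRY4, -0.24 for DUSP2, 0.24 for DUSP4, 0.97 for EFNB2, 0.46 for LINC01852, 0.33 for NEURL1B and 0.55 for EGR1. MAP2K7, at a higher level, was at 0.05. The atypical phosphatases had 0 higher, in place of 1, with DESeq2, RLE scaling, no filter, the replicate block, the deposited normalized values and without both A libraries. Lower cascade genes, 3 at first, numbered 5 without a filter, 7 with the deposited normalized values and 10 without both A libraries. Lower brakes numbered 5 with the deposited normalized values. Higher receptor kinases, 2 at first, numbered 4 without a filter, and 1 without both A libraries or under the replicate block. With 1 library left out, the counts ran from 0 to 1 (atypical higher), 2 to 8 (cascade lower), 3 to 5 (brakes lower), 0 to 3 (receptors higher) and 2 to 3 (relatives higher). The cause of these shifts was not tested. With the replicate letter as a block 3425 genes were higher and 3337 lower, with 7 and 2 members. Deviations of same-letter libraries correlated at -0.52 (A), -0.15 (B), -0.26 (C), 0.03 (D) and -0.10 (E) over 12316 genes, and 0 of 5 letters matched best with itself. These values show no likeness by letter, but cannot tell whether same-letter libraries were prepared together. Depth limits SPRY2, which has counts in 3 libraries.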

Other observations

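The genes here were named after their values were seen. EGFR, a receptor that Sprouty proteins regulate, was below the filter in the fit, yet EFNB2 guide libraries A to E held 0, 0, 168, 195 and 4 counts of it, and control libraries held 0, 1, 0, 0 and 1. EFNB2 guide C and D thus carried nearly all of the EGFR reads, at 3.51 and 4.00 CPM, and library D was also the one with most SPRY2 reads. AREG, a ligand of EGFR, had 22 counts with the EFNB2 guide and 5 in controls, and the JNK gene MAPK10 had 34 and 3; neither was tested.

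Several genes of the lists changed strongly at levels below the naming limit. ZBTB16, a glucocorticoid-responsive transcription factor gene, rose from 0.0662 to 0.891 CPM (log2 fold change 3.69, SE 0.25, adjusted p = 1.33e-08), and the nuclear receptor gene NR4A1 from 0.267 to 0.783 CPM (1.55, SE 0.20, adjusted p = 1.42e-05). ETV1, an ETS factor gene like ETV4 and ETV5, rose from 0.105 to 0.420 CPM (1.99, SE 0.29, adjusted p = 4.25e-05), and FOS from 0.739 to 1.55 CPM (1.06, SE 0.25, adjusted p = 0.00308). For FOS, EFNB2 guide D stood at 2.68 CPM against 1.07 to 1.58 in the others of that guide, and the highest control at 1.06 CPM. DUSP26, an atypical phosphatase, fell from 2.40 to 0.735 CPM (log2 fold change -1.70, SE 0.14, adjusted p = 1.49e-07), and DUSP8, a JNK and p38 phosphatase, rose from 0.468 to 0.691 CPM (0.56, SE 0.17, adjusted p = 0.0145). RASAL2, a brake on RAS, rose from 0.385 to 0.880 CPM (1.19, SE 0.26, adjusted p = 0.00138). IL17RD, an inhibitor of fibroblast growth factor signalling also called SEF, fell from 0.944 to 0.589 CPM (-0.68, SE 0.19, adjusted p = 0.00985).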
